A study of Drosophila melanogaster with 8 samples.

Results

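Visual pigment consists of a rhodopsin protein and a chromophore made from dietary carotenoid. In adult heads, 6 Drosophila genes that supply or bind this chromophore or mature the rhodopsin were looked for: ninaD, santa-maria, ninaB, ninaG, pinta and ninaA. They were chosen by name, with earlier results of these data known, and read by the probe sets annotated to 1 of these symbols alone. Of the 6 genes, 5 had such a probe set, 1 each, among 11982 genes so named and 18769 probe sets tested, and ninaA, the cyclophilin that carries the major rhodopsin through the secretory pathway, was not analysed here because no probe set had its symbol in the annotation used. RNA of whole heads had been hybridized to Affymetrix Drosophila_2 arrays, which measure transcripts close to their 3' ends and yield 1 log2 level for each probe set. The 4 wild type (WT) samples and the 4 HEXIM knockdown samples are both labelled as the W118 strain, adult, and reared at 29°C, with biological replicates numbered 1 to 4, and neither age nor sex is given. The knockdown flies carried the GMR-Gal4 driver and a UAS-Hexim-RNAi transgene, and the methods name neither for the WT flies, so that an effect of the driver or the transgene cannot be told apart from that of the knockdown. GMR-Gal4 acts in differentiating eye cells, whereas the RNA also came from brain, fat body, muscle and antennae, and each sample pooled the heads of many flies. The question put to the arrays was which genes of the head differ when HEXIM, an inhibitor of the elongation kinase P-TEFb, is reduced in the differentiating eye.

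Flies cannot make carotenoids and take them from food. Class B scavenger receptors, relatives of mammalian CD36, bring carotenoids into cells, a cleaving and isomerizing enzyme turns them into retinal, and an oxidoreductase completes the hydroxylated form that fly rhodopsins use. Without chromophore the major rhodopsin is not matured, so that mutants of these genes have little visual pigment and an altered electrical response to light. In the retina, the pigment cells around the photoreceptors hold the retinoid binding protein Pinta and dehydrogenases that act on retinoids.

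None of the 5 measured genes changed at an adjusted p under 0.05 between HEXIM knockdown and WT heads, where 48 of all probe sets (0.256%) did, and none had an unadjusted p under 0.05, where 7.24% of all probe sets did. All 5 log2 fold changes were above 0, from 0.01 for ninaG to 0.43 for ninaD, with a median of 0.13, beside a median of -0.02 over all probe sets. For ninaG and santa-maria, both within 1 SE of 0, the sign turned under several other settings, among them array weights, a covariate from control probe sets and the removal of some single arrays. No gene of the 5 had all arrays of one genotype on one side of all arrays of the other, which 5.35% of all probe sets did. A level read in whole heads cannot tell fewer cells of a type from less RNA per cell.

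Array medians lay between 5.41 and 5.55 and the correlation between any pair of arrays between 0.974 and 0.997. The first principal component, with 51.3% of the variance, put WT replicates 1 and 3 and HEXIM knockdown replicate 4 on one side and the other 5 arrays on the other. The middle probe sets of the GAPDH and eIF-4a control transcripts differed from their 3' probe sets by -2.09 to -1.96 on the log2 scale in these 3 arrays and by -1.30 to -1.17 in the other 5. Hexim itself had a WT mean of 7.93 ± 0.15 (SD, n = 4) and a HEXIM knockdown mean of 7.61 ± 0.12 (SD, n = 4), with no overlap of the arrays, and did not pass the test (log2 fold change -0.33, limma adjusted p = 0.418). Photoreceptor markers were bright, with a mean log2 level over 12 genes of 11.82 to 12.15 in WT and 11.76 to 11.99 in HEXIM knockdown arrays, and markers of the midgut, a tissue that heads should lack, were dim, with a mean over 6 genes of 4.23 to 4.68 in WT and 4.25 to 4.39 in HEXIM knockdown arrays. The 4 genes typical of female heads had a mean level of 9.21 in WT replicate 3 and of 11.31 to 12.91 in all other arrays.

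ninaD encodes a class B scavenger receptor needed for carotenoid uptake, known for its role in the gut. Its log2 level was 7.09, 6.44, 6.25 and 6.25 in WT replicates 1 to 4, and 6.76, 6.82, 7.0 and 7.18 in HEXIM knockdown replicates 1 to 4. All HEXIM knockdown arrays therefore stood above WT replicates 2, 3 and 4, and WT replicate 1 stood among them. The means were 6.51 ± 0.40 (SD, n = 4) and 6.94 ± 0.19 (SD, n = 4), and the log2 fold change was 0.43 (SE 0.20, 95% interval -0.02 to 0.88), which did not pass the test (limma adjusted p = 0.727, exact two-sided permutation test p = 0.114). The interval runs from a ratio of 0.987 to one of 1.84, so that a clear rise could not be told from none. Without WT replicate 1 the log2 fold change was 0.62 (SE 0.12, limma adjusted p = 0.265), and then 8.15% of all probe sets had separate genotypes, as ninaD had. It was 0.34 without WT replicate 3 or 4 and 0.35 without HEXIM knockdown replicate 4. Among the 5 arrays with the higher middle signal the difference was 0.51 (SE 0.11, limma adjusted p = 0.338). Among the other 3 it was 0.50, with 1 HEXIM knockdown array and no test. There HEXIM knockdown replicate 4, at 7.18, was set against the mean of WT replicates 1 and 3, which lay apart at 7.09 and 6.25. In WT replicate 1 the midgut markers also had their highest mean, 4.68 against 4.23 to 4.39 in the other 7 arrays. Among them Jon65Aiii, a serine protease gene, was at 5.0 in that array and at 4.20 to 4.35 elsewhere. alphaTry and Mal-A1 were also highest in that array, while betaTry, epsilonTry and Jon25Bi were not. HEXIM knockdown replicate 4, where ninaD was highest at 7.18, had a midgut mean of 4.34. The part of the midgut levels in the ninaD level was not tested.

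**Figure D1:**
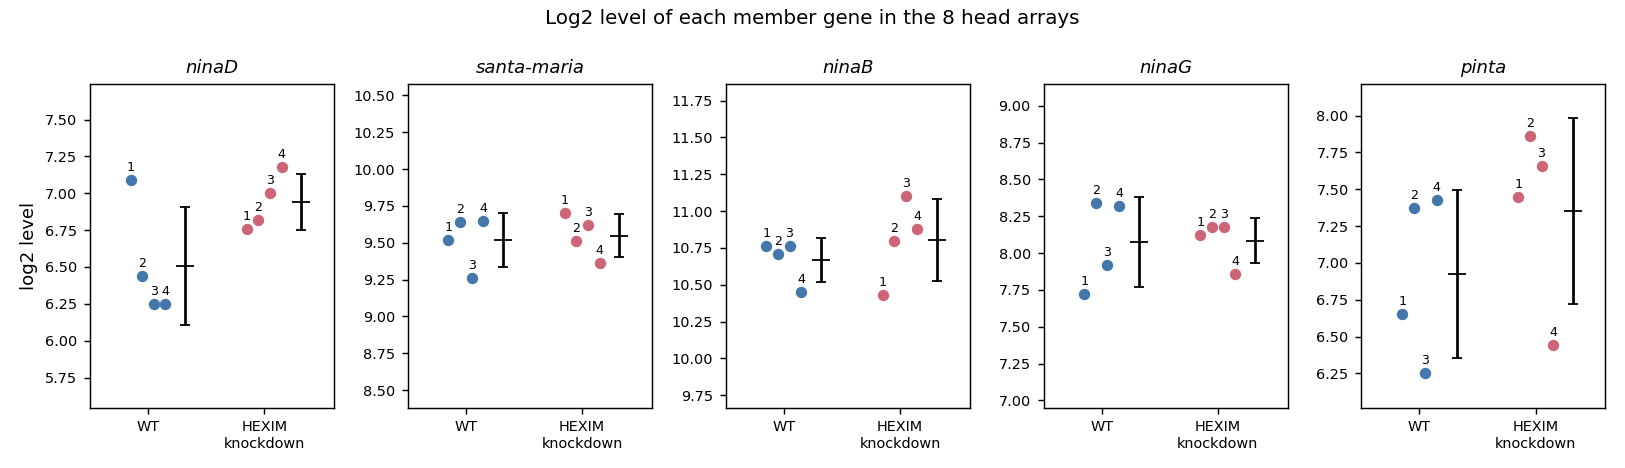
Log2 level (vertical axes, each spanning the same range) of ninaD, santa-maria, ninaB, ninaG and pinta in 4 WT and 4 HEXIM knockdown head arrays, with the replicate number above each point and the mean with its SD to the right. The genotypes overlap in every panel, ninaD has WT replicate 1 at 7.09 among the HEXIM knockdown arrays, and pinta is low in WT replicates 1 and 3 and in HEXIM knockdown replicate 4.

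santa-maria encodes a second class B scavenger receptor, which acts in neurons and glia and brings carotenoids to the cleaving enzyme. Its log2 level was 9.52, 9.64, 9.26 and 9.65 in WT and 9.70, 9.51, 9.62 and 9.36 in HEXIM knockdown replicates 1 to 4. The genotypes lay over each other, with WT replicate 3 and HEXIM knockdown replicate 4 lowest. The means were 9.52 ± 0.18 (SD, n = 4) and 9.55 ± 0.15 (SD, n = 4), which gave a log2 fold change of 0.03 (SE 0.12, limma adjusted p = 1.000). Its 95% interval of -0.23 to 0.29 corresponds to ratios of 0.85 to 1.23, the narrowest interval of the 5 genes. Among markers of the cells in which this receptor is placed, those of neurons had a mean level over 5 genes of 9.07 to 9.15 in WT and 9.04 to 9.19 in HEXIM knockdown arrays, and those of glia had a mean over 5 genes of 10.47 to 10.57 and 10.22 to 10.38, without overlap. None of these 10 genes passed the test, the lowest adjusted p from limma being 0.0731 for moody, a glial receptor gene of the blood-brain barrier (log2 fold change -0.60). The other glial genes had log2 fold changes of -0.41 (wrapper), -0.22 (Gs2), -0.10 (repo) and 0.15 (nrv2). Of the 5 glial genes, moody alone had genotypes without overlap, where 5.35% of all probe sets did. moody passed with arrays centred on their medians (adjusted p = 0.0361), with array weights (adjusted p = 0.00535) and with the control level as a covariate (adjusted p = 0.0252). It did not pass under any other setting, with adjusted p values from limma of 0.0564 to 0.442. wrapper passed with array weights alone (adjusted p = 0.0221). That setting gave HEXIM knockdown replicate 2 a weight of 9.04, against 0.27 to 0.87 for the other HEXIM knockdown arrays.

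ninaB encodes the enzyme that cleaves carotenoid into retinal and isomerizes it. It stood at 10.76, 10.71, 10.76 and 10.45 in WT and at 10.43, 10.80, 11.10 and 10.88 in HEXIM knockdown replicates 1 to 4. HEXIM knockdown replicates 2, 3 and 4 were above every WT array, while HEXIM knockdown replicate 1 was below every WT array. The means of 10.67 ± 0.15 (SD, n = 4) and 10.80 ± 0.28 (SD, n = 4) gave a log2 fold change of 0.13 (SE 0.15, 95% interval -0.20 to 0.47), within the spread between replicates (limma adjusted p = 1.000, exact two-sided permutation test p = 0.343). Leaving out 1 array moved this value between 0.03, without HEXIM knockdown replicate 3, and 0.26, without HEXIM knockdown replicate 1. The genes f-cup and Adgf-D overlap ninaB in the RefSeq gene order and had log2 fold changes of -0.16 (SE 0.08) and 0.53 (SE 0.24), neither past the test.

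ninaG encodes an oxidoreductase of the GMC family that acts late in making the chromophore. Its log2 level was 7.72, 8.34, 7.92 and 8.32 in WT and 8.12, 8.18, 8.18 and 7.86 in HEXIM knockdown replicates 1 to 4. Every HEXIM knockdown array lay inside the range of the WT arrays. The log2 fold change of 0.01 (SE 0.16, 95% interval -0.34 to 0.37) came from means of 8.08 ± 0.31 (SD, n = 4) and 8.09 ± 0.15 (SD, n = 4), and did not pass the test (limma adjusted p = 1.000).

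pinta encodes a retinoid binding protein with a CRAL-TRIO domain, found in retinal pigment cells. It varied most of the 5 genes, at 6.65, 7.37, 6.25 and 7.43 in WT and 7.45, 7.86, 7.66 and 6.44 in HEXIM knockdown replicates 1 to 4. Each genotype held a low and a high set of arrays, and HEXIM knockdown replicates 1 to 3 were all above the highest WT array. The means were 6.93 ± 0.57 (SD, n = 4) and 7.35 ± 0.63 (SD, n = 4), which gave a log2 fold change of 0.42 (SE 0.36, limma adjusted p = 1.000, exact two-sided permutation test p = 0.257). Its 95% interval of -0.41 to 1.25 spans ratios from 0.755 to 2.38, the widest of the 5. The pooled SD within genotypes was 0.60 on the log2 scale, larger than that of 96.1% of all probe sets, against a median of 0.17 over all of them and 0.17 to 0.31 for the other 4 genes.

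The low pinta values fell in the 3 arrays that lay apart on the first principal component. pinta was at 6.25 to 6.65 in these arrays and at 7.37 to 7.86 in the other 5, without overlap. ninaG behaved alike, at 7.72 to 7.92 against 8.12 to 8.34, and santa-maria nearly so, at 9.26 to 9.52 against 9.51 to 9.70. ninaB and ninaD did not divide in this way, since the 3 arrays lay within the range of the other 5 for ninaB, at 10.76 to 10.88 against 10.43 to 11.10, and spread from 6.25 to 7.18 for ninaD. For pinta, HEXIM knockdown minus WT was 0.26 among the 5 arrays. It was -0.02 among the 3, with 1 HEXIM knockdown array and no test. Over the 8 arrays Pearson's r with the middle minus 3' level of the control transcripts was 0.94 for pinta, 0.92 for ninaG, 0.81 for santa-maria, -0.20 for ninaB and -0.32 for ninaD, as a description of points that fall into 2 sets. An absolute r over 0.8 was reached by 27.6% of all probe sets. With that control level as a covariate, the log2 fold changes were 0.25 (SE 0.12) for pinta, 0.48 (SE 0.17) for ninaD, 0.15 (SE 0.14) for ninaB, -0.01 (SE 0.08) for santa-maria and -0.06 (SE 0.08) for ninaG, with limma adjusted p values from 0.268 to 0.974.

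**Figure D2:**
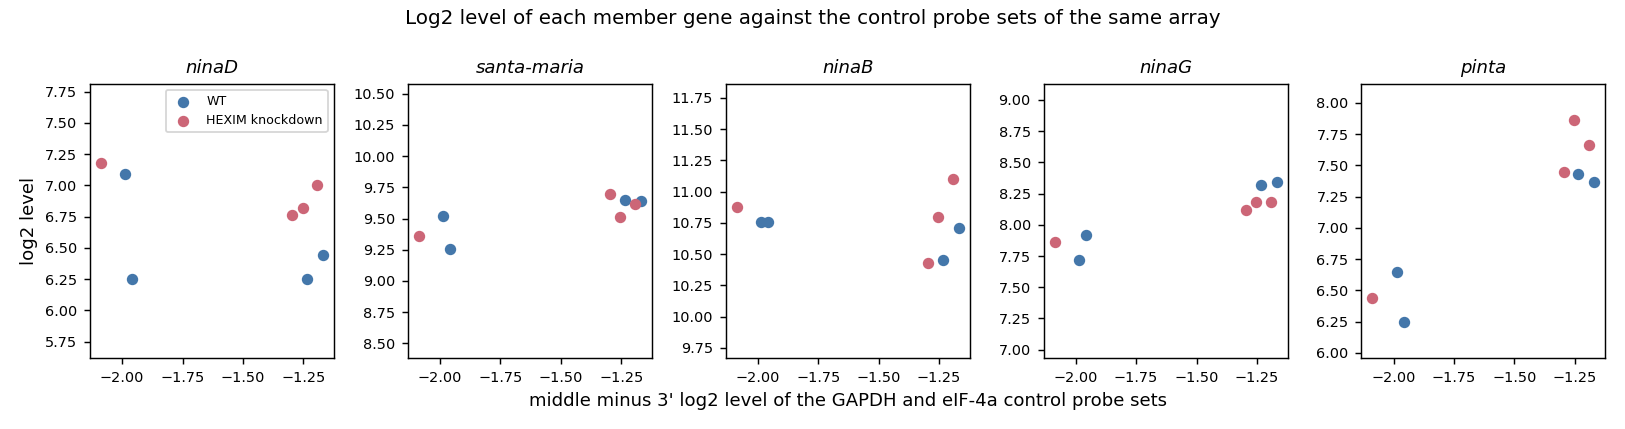
Log2 level of each of the 5 genes (vertical axes, each spanning the same range) against the middle minus 3' log2 level of the GAPDH and eIF-4a control probe sets (horizontal axes) in 4 WT and 4 HEXIM knockdown arrays. The arrays form 2 sets along the horizontal axis, near -2.0 and near -1.2, and pinta and ninaG are lower in the left set, without overlap, whereas ninaB and ninaD are not.

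Among the 5 genes, pinta, ninaG and santa-maria followed one another across the arrays, with Pearson's r over 8 arrays of 0.79 for pinta with santa-maria, 0.78 for pinta with ninaG and 0.65 for ninaG with santa-maria. ninaB and ninaD had an r of 0.53 with each other and of -0.53 to -0.04 with the other 3. These values share the 2 sets of arrays just described. The probe sets of 1 gene whose levels were most like those of pinta were Lsd-2, a gene of lipid droplets (r = 0.990), and CG10584 (r = 0.987). For ninaG they were CG7430 and CG10747 (r = 0.987 for both), for santa-maria Dolk (r = 0.986) and CG8067 (r = 0.969), for ninaB l(3)neo38 (r = 0.976) and PAN2 (r = 0.972), and for ninaD GrlHz (r = 0.947) and CG43066 (r = 0.942), each the highest of 8046 probe sets over 8 arrays. An r above 0.9 was reached by 484 of them for ninaG and by 288 for pinta, but by 67 for ninaB, 42 for santa-maria and 5 for ninaD.

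**Figure D3:**
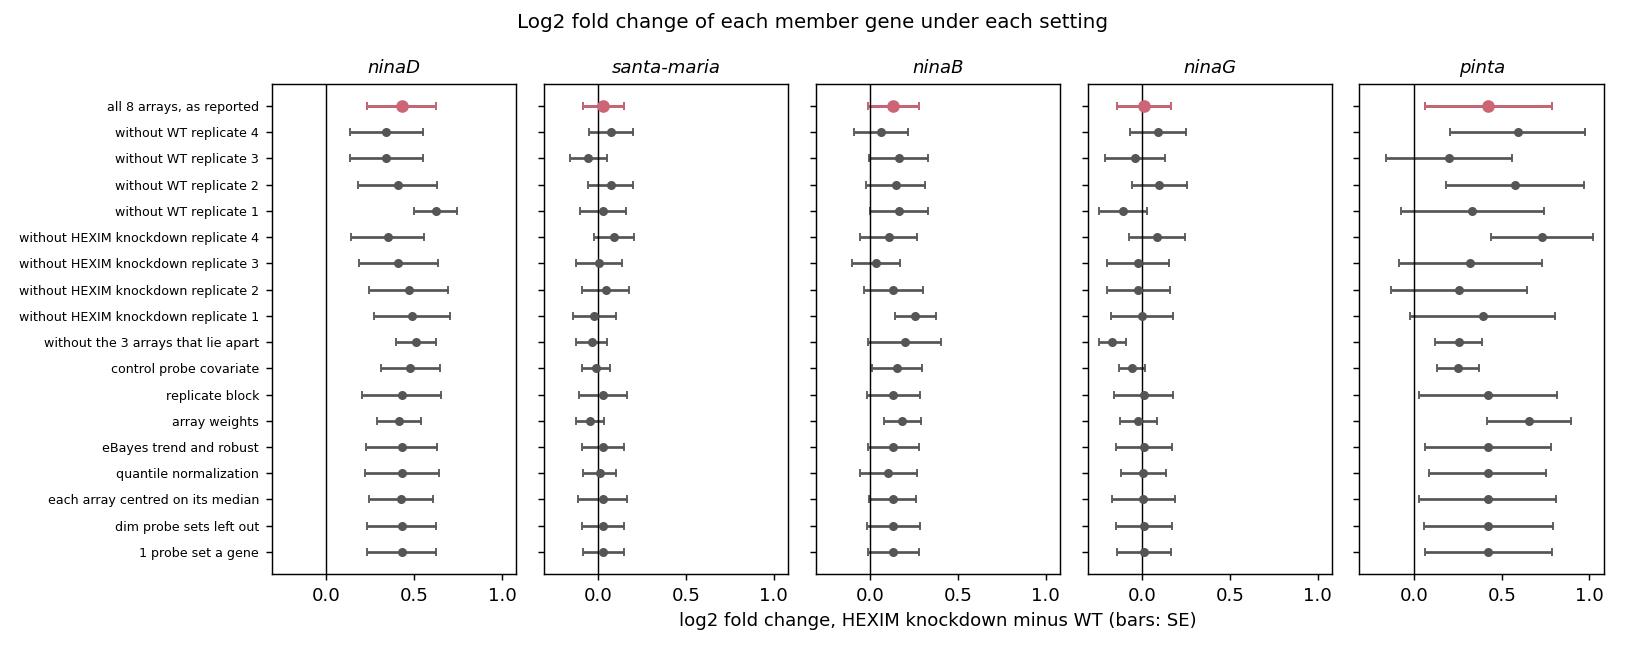
Log2 fold change, HEXIM knockdown minus WT (horizontal axes, bars are standard errors), of each of the 5 genes with all 8 arrays (top row, red) and under 17 other settings. ninaD stays between 0.34 and 0.62 and pinta between 0.20 and 0.73, ninaB lies between 0.03 and 0.26, and santa-maria and ninaG lie on both sides of 0.

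Around these genes, 71 genes of related families and steps had a named probe set, and 1 of them passed the test, rdhB, which fell in HEXIM knockdown heads, where 0.256% of all probe sets passed. An unadjusted p under 0.05 was found for 9 of the 71, against 7.24% of all probe sets, and genotypes without overlap for 8, against 5.35%. The 71 were read by their brightest probe sets, whereas the shares cover all probe sets, dim and unnamed ones included. The lists were also chosen with earlier results of these data known, so that an excess was not tested. rdhB encodes a retinol dehydrogenase of the retinal pigment cells that takes part in regenerating the chromophore. Its log2 level was 10.86, 10.97, 10.82 and 10.99 in WT and 10.27, 10.13, 10.34 and 9.86 in HEXIM knockdown replicates 1 to 4. The lowest WT array was still above the highest HEXIM knockdown array. rdhB fell by 0.76 on the log2 scale (SE 0.11, limma adjusted p = 0.0489), to a ratio of 0.592. The call was lost without WT replicate 1, 2, 3 or 4 and without HEXIM knockdown replicate 1, 2 or 3, with an adjusted p of up to 0.212, while the log2 fold change stayed between -0.82 and -0.66. Without the 3 arrays that lay apart it was -0.73 (adjusted p = 0.143), with arrays centred on their medians -0.76 (adjusted p = 0.123), and with the control level as a covariate -0.80 (adjusted p = 0.00392). The call was also lost with the replicate number as a block (limma adjusted p = 0.368). It held under the remaining settings, with adjusted p values from limma of 0.00121, with array weights, to 0.0483.

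Pdh, another dehydrogenase of retinoids in pigment cells, was at 13.76, 13.78, 13.75 and 13.79 in WT and 13.26, 13.56, 13.59 and 13.47 in HEXIM knockdown replicates 1 to 4. The genotypes did not overlap, but the log2 fold change of -0.30 (SE 0.09) did not pass the test over all probe sets (limma adjusted p = 0.373). Beside these values, the pigment gene se, of red pigment synthesis, had a log2 fold change of -0.88 (limma adjusted p = 0.235). bw, a pigment transporter, had -0.70 (limma adjusted p = 0.168), and both se and bw had genotypes without overlap. st, another transporter, had 0.39, and cn had 0.06 but was dim, at 3.06 to 3.33 over all arrays. The mean level of these pigment cell markers, 5 genes with Pdh, was 9.13 to 9.33 in WT and 8.65 to 9.13 in HEXIM knockdown arrays. pinta, placed in the same cells, had a positive log2 fold change, and whether it differed from rdhB in its response was not tested. Among the markers of photoreceptors, 0 of 12 genes passed the test, 10 had a negative log2 fold change and the median was -0.10, with trpl, a light-activated channel, at -0.29 (limma adjusted p = 0.628). A negative log2 fold change was also found for 10389 of all 18769 probe sets.

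**Figure D4:**
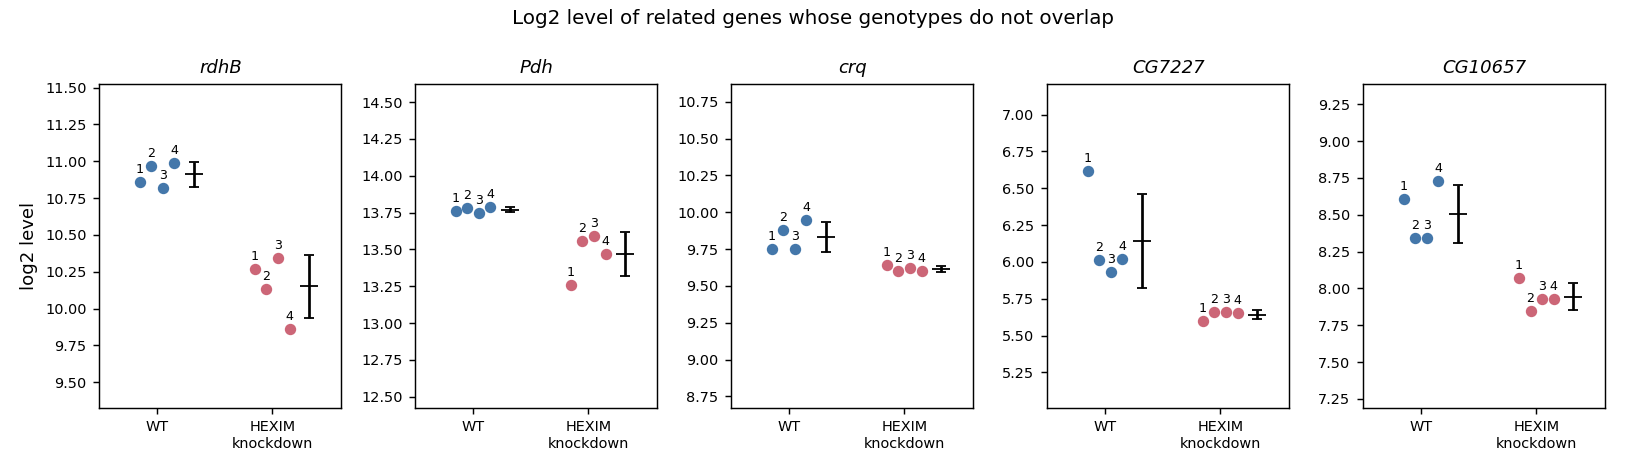
Log2 level (vertical axes, each spanning the same range) of rdhB, Pdh, crq, CG7227 and CG10657 in 4 WT and 4 HEXIM knockdown arrays, with the replicate number above each point and the mean with its SD to the right. These are 5 of the 8 related genes whose genotypes did not overlap, all 5 lower in HEXIM knockdown heads. Of the 3 not drawn, CG10907 and CG7747 were lower and Rh7 was higher, and of the 8 rdhB alone passed the test.

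The other genes of this list take part in the transport of lipids, and carotenoids with them, by lipoproteins of the haemolymph. apolpp, the main lipoprotein of the haemolymph, Apoltp and Mtp had log2 fold changes of 0.26, 0.14 and 0.04, and the lipoprotein receptor genes LpR1 and LpR2 of 0.15 and 0.07 (limma adjusted p from 0.867 to 1.000). Markers of fat body, where the lipoproteins are made, had log2 fold changes of 1.17 for Fbp1, 1.05 for Fbp2 and 0.91 for Lsp2 (limma adjusted p of 0.243 to 0.582), and a mean level over 4 genes, apolpp among them, of 9.95 to 10.36 in WT and 10.95 to 11.17 in HEXIM knockdown arrays. Their part in the lipoprotein values was not tested.

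Of 11 measured class B scavenger receptor genes other than ninaD and santa-maria, none passed the test, 5 lay above and 6 below a log2 fold change of 0, and the median was -0.02. CG7227 was at 6.62, 6.01, 5.93 and 6.02 in WT and 5.60, 5.66, 5.66 and 5.65 in HEXIM knockdown arrays (log2 fold change of -0.50 with an SE of 0.15, limma adjusted p = 0.373), with WT replicate 1 high as it was for ninaD. crq (croquemort), a receptor of phagocytes for dying cells, was at 9.75 to 9.95 in WT and 9.60 to 9.64 in HEXIM knockdown arrays (log2 fold change of -0.22 with an SE of 0.07, limma adjusted p = 0.491). Both thus had genotypes that did not overlap and log2 fold changes opposite in sign to that of ninaD. CG31741, the member of this family that lies next to ninaD in the RefSeq gene order, was dim at 3.98 to 4.39 in WT arrays, with a log2 fold change of 0.16 (SE 0.23), and Arr1, the arrestin gene on the other side of ninaD, had -0.18 (SE 0.09). These neighbours were chosen for their place, and neither passed the test.

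Of 20 measured genes with a CRAL-TRIO domain other than pinta, none passed the test, 7 lay above and 13 below 0, and the median log2 fold change was -0.04. CG10657 was at 8.34 to 8.73 in WT and 7.85 to 8.07 in HEXIM knockdown heads, without overlap (log2 fold change -0.56, SE 0.11, limma adjusted p = 0.144). CG10657 passed with array weights alone (limma adjusted p = 0.0112). Under the other settings its adjusted p from limma was 0.0647 to 0.392. Cralbp had a log2 fold change of -0.08 (SE 0.15), and CG33514, of which another probe set had 0.06, one of -0.16 (SE 0.08). CG5973, which overlaps santa-maria in the RefSeq gene order, had -0.18 (SE 0.34) and was lowest in WT replicates 1 and 3 and HEXIM knockdown replicate 4, as pinta was.

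**Figure D5:**
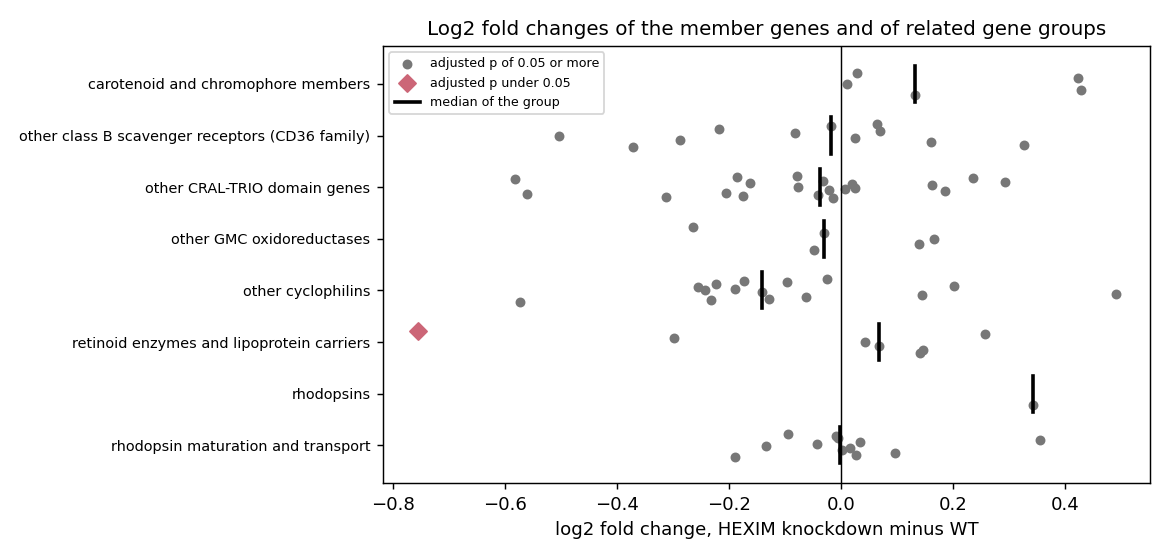
Log2 fold change, HEXIM knockdown minus WT (horizontal axis), of each measured gene of the carotenoid and chromophore group and of 7 related groups (rows), each gene read by its brightest probe set. The black bars are medians, -0.14 for the other cyclophilins, 0.13 for the carotenoid and chromophore genes and 0.34 for the rhodopsins, of which Rh7 alone was measured, and the diamond marks rdhB at -0.76, the 1 gene past the test.

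Of 15 measured cyclophilin genes, the family of prolyl isomerases to which ninaA belongs, none passed the test, 3 lay above and 12 below 0, and the median log2 fold change was -0.14. Over all 18769 probe sets, 10389 lay below 0. CG10907 had a log2 fold change of -0.57 (SE 0.15, limma adjusted p = 0.286) and CG7747 of -0.24 (SE 0.07, limma adjusted p = 0.373), both without overlap between the genotypes. These values say nothing of ninaA itself. Of 12 measured genes of rhodopsin maturation and transport, none passed the test and 6 lay on each side of 0, with a median log2 fold change of -0.002. Cnx99A, the calnexin that folds the major rhodopsin, had a log2 fold change of -0.19 (SE 0.23), Mppe, a phosphoesterase needed for trimming its sugars, of -0.005 (SE 0.12), and EMC8-9 and EMC5, of the membrane protein insertion complex, of 0.36 (SE 0.21) and -0.13 (SE 0.10). Rh7, the 1 rhodopsin gene with a named probe set, was at 7.94 to 8.14 in WT and 8.29 to 8.55 in HEXIM knockdown arrays (log2 fold change of 0.34 with an SE of 0.09, limma adjusted p = 0.286), and its dimmer probe set had 0.08. Of 5 measured GMC oxidoreductase genes other than ninaG, none passed the test, with a median of -0.03, and Gld (glucose dehydrogenase) and CG9517 had log2 fold changes of -0.26 (SE 0.34) and 0.17 (SE 0.23).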

How the data were processed

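Per the labels, the authors obtained the deposited log2 signals by RMA in Affymetrix Expression Console, while the methods name GCRMA. No further transformation was applied. Precision is limited by the number of arrays. Gene symbols came from GEO's platform annotation and were checked against RefSeq, whose gene order gave neighbours and overlaps. Of 18952 probe sets, 183 controls were left out. Of the rest, 13647 had 1 symbol, 402 several and 4720 none. A gene of a list was read by its brightest probe set.

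The model was HEXIM knockdown minus WT in limma 3.58.1 under R 4.3.3, by lmFit and eBayes, over 18769 probe sets with no filter and without the replicate number as a block. P-values were adjusted by the Benjamini-Hochberg method and called under 0.05. Exact permutation tests, whose smallest possible p here is 0.0286, and figures were made in Python 3.11.15. The fit was also run on simulated data with independent noise for each probe set. Those data had no arrays lying apart, so they do not show how the fit behaves with such arrays. The arrays are biological replicates per the labels. The named genes were those of the chromophore group, the called genes of each list or else the 2 with the smallest p, and the 2 genes most alike to each chromophore gene. Other genes were named after their values were seen. The members and lists were chosen with earlier results of these data known. Of 17 other settings, 15 were listed at the outset and 2 were chosen after seeing the data, a covariate from the control probe sets and a fit without the 3 arrays that lay apart.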

Additional observations from a re-analysis of the deposited data

Results flagged for a closer look

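Dixon's test at 95% was run on 64 groups of 4 arrays, for the 5 carotenoid genes, Hexim and 26 related or marker genes in each genotype. It singled out 1 array in 7 groups, where about 3.2 would arise by chance (1 in 20), and none of these concerned a carotenoid or chromophore gene. In WT replicate 1, CG7227 was high at 6.62 against 5.93 to 6.02, and so was Jon65Aiii, at 5.0 against 4.26 to 4.35. In WT replicate 3, the yolk protein genes Yp1 and Yp2 were low, Yp1 at 12.19 against 13.31 to 13.37 and Yp2 at 9.49 against 12.19 to 12.62. In WT replicate 4, se was low at 11.69 against 12.06 to 12.12. Among HEXIM knockdown arrays, Rh7 was high in replicate 3, at 8.55 against 8.29 to 8.30, and Arr1 in replicate 1, at 13.51 against 13.27 to 13.31.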

How the results depend on the processing

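ninaD, ninaB and pinta kept a positive log2 fold change and stayed short of the threshold under all 17 alternatives, with adjusted p values from limma of 0.126 to 1.000 (ninaD), 0.405 to 1.000 (ninaB) and 0.190 to 1.000 (pinta). Within the 3 arrays that lay apart, with 1 HEXIM knockdown array, the pinta difference was -0.02. ninaG and santa-maria turned to -0.0204 and -0.0455 with array weights, to -0.0568 and -0.0111 with the control probe covariate, and to -0.170 and -0.0380 without the 3 arrays that lay apart, the last 2 settings having been chosen after seeing the data. Without 1 array they lay between -0.11 and 0.10 and between -0.0561 and 0.0914. Over all probe sets, 48 were called (27 higher, 21 lower), 507 with array weights (257 and 250), 142 with the control probe covariate (65 and 77), 3 without the 3 arrays that lay apart (2 and 1), and 10 to 48 without 1 array (7 to 30 and 3 to 22). With the replicate number as a block 1 was called (1 and 0). The array weight was 9.04 for HEXIM knockdown replicate 2 and 0.27 to 0.87 for the other HEXIM knockdown arrays. Calls with array weights thus rest, for the HEXIM knockdown, mostly on that 1 array. The deviations of same-numbered arrays correlated at -0.11, 0.57, -0.19 and -0.72, not all above 0.1, and no label ties a number to a shared batch, so that the samples were treated as sharing only a number. Of the 71 related genes, 1 was called, 4 with array weights (rdhB, crq, CG10657 and Rh7), 0 with arrays centred on their medians, with the replicate block or without the 3 arrays, and 0 to 1 without 1 array. Among marker genes, bw, se, moody, wrapper, Fbp1 and Fbp2 passed with array weights, with adjusted p values of 0.00535 to 0.0483. The log2 fold change of Gld lay between -0.49 and 0.00069 and that of CG9517 between -0.0140 and 0.29 without 1 array. The causes of these shifts were not tested. Dim probe sets such as those of the midgut markers limit what can be seen.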
